A study of Mus musculus with 12 samples.

Results

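The antiviral interferon-stimulated genes are a named set of 41 mouse genes whose products sense, bind, cut, trap or otherwise block viruses, or control the proteins that do. They were taken by gene symbol. Of the 41, 38 had a probe set of their own on the array, out of 19938 genes measured in that way. Ifi44 had no probe set named for it, and the probe sets of Isg15 and Ifi47 also carry the name of another gene (Gm9706 and Olfr56), so these 3 genes are listed without values.

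RNA came from macrophages grown from the bone marrow of C3H/HeN mice, a strain that responds to lipopolysaccharide (LPS), the Gram-negative cell wall component sensed by the receptor Tlr4. Marrow cells had been grown with IL-3, IL-6, stem cell factor and medium conditioned by L cells, a source of macrophage colony-stimulating factor, and the number of mice behind each culture is not given in the sources used here. Cultures were left unstimulated (0 min) or were given LPS at 100 ng/ml, for either 45 or 270 min, and every culture, the unstimulated ones included, had 200 µM of the uridine analogue 4-thiouridine for its last 35 min. RNA made in that window was biotinylated and pulled down on streptavidin (nascent RNA, 100 ng per array), and the unfractionated RNA of the same culture was measured beside it (total RNA, 200 ng per array). Fraction and time give 6 groups, each with 1 array from each of 2 independent experiments, 12 arrays in all. Every p-value below thus has only these 2 experiments as replicates. The spread it uses is pooled over the groups and drawn by limma towards that of other genes.

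Macrophages answer LPS along one arm that leads through the adaptor Ticam1 and the kinase Tbk1 to the transcription factor Irf3, which switches on the interferon gene Ifnb1. Secreted interferon binds the receptor Ifnar1/Ifnar2 on the same and neighbouring cells, and signalling through the kinases Jak1 and Tyk2 leads to binding by a complex that contains Irf9 on interferon-stimulated response elements in the promoters of the genes described here. Some of these genes, such as Ifit1, Ifit2 and Rsad2, are also known to be reached by Irf3 directly, without interferon. Because 4-thiouridine marks only RNA made in a short window, nascent RNA shows recent synthesis, while total RNA also holds what had been made before.

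Promoter windows of 300 bases, 250 before to 50 after the annotated start, were given for 28 of the 38 genes (RefSeq, build GRCm38.p6). The response element was searched as GAAANNGAAA and its reverse complement TTTCNNTTTC. It was present in 10 of the 28 genes (35.7%), namely Bst2, Ddx58, Eif2ak2, Ifih1, Ifit1, Ifit3, Oas3, Rsad2, Trim21 and Trim30a, against 3.99% of the 27025 genes with a window in the same table. The NF-kB site was in 17.9% of these members against 9.55% of genes, and the gamma-activated site TTCNNNGAA in 21.4% against 9.55%. The TATA box TATAAA (or TTTATA) was in 14.3% against 15.7%. Matches may overlap one another, as the pair in Bst2 does, and a match is a run of letters, not a binding site shown here. The 250 bases before the start are shown, 5′ to 3′ on the strand of the gene, for members chosen by their calls. Ifit1, Rsad2, Ifit2 and Helz2 were called higher in nascent RNA at 45 min, and Ifit3 was not called then. Trim25 was not called at 270 min. Whether these genes differ from one another in timing was not tested. Capitals mark the response element.
Ifit1, chr19:34640639-34640888 (+): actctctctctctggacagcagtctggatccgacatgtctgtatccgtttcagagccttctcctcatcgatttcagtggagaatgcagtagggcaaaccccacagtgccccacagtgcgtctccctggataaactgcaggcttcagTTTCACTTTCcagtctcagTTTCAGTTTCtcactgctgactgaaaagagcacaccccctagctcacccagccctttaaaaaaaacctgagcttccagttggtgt
Ifit3, chr19:34583279-34583528 (+): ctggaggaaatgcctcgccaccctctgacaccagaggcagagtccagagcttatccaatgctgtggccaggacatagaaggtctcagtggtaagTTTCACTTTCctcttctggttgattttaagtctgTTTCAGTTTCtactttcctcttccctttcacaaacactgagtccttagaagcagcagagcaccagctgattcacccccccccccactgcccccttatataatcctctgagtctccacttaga
Rsad2, chr12:26456453-26456702 (-): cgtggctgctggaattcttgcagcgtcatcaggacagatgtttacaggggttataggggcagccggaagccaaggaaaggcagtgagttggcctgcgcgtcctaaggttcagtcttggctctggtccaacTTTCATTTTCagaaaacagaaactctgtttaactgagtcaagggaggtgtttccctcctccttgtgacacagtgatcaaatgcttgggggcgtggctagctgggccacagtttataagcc
Ifit2, chr19:34550444-34550693 (+): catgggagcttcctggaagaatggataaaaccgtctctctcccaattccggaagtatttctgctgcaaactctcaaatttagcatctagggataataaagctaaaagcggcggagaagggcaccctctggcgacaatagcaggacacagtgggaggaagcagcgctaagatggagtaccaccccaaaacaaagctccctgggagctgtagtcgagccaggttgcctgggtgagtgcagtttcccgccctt
Helz2, chr2:181242028-181242277 (-): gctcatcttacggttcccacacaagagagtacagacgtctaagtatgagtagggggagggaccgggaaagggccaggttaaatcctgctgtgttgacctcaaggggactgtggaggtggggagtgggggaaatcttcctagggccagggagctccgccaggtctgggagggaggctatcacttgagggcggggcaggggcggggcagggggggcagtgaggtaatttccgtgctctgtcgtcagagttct
Trim25, chr11:88999153-88999402 (+): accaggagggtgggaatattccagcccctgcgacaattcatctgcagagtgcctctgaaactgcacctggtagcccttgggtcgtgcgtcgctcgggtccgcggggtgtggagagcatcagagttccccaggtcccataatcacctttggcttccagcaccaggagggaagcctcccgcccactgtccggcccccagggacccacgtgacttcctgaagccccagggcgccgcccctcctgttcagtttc
In Ifit1 the elements begin 104 and 85 bases before the start, in Ifit3 156 and 122 bases before it, and in Rsad2 120 bases before it. Ifit2 has 2 annotated starts, of which the upstream one is shown, and neither window held the letters searched, nor did those of Helz2 and Trim25. Of the 5 members that were higher in nascent RNA at 45 min, 3 had the element within the 300 bases (in Ifih1 it begins 32 bases after the start), and of the other 23 members with a window 7 had it.

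Levels are log2 of the deposited intensities. They can be compared for one gene between arrays but not between genes, and they are relative to everything else measured on that array. A background level was set on each array at the 95th percentile of 1027 olfactory receptor genes, which macrophages are not known to use; it lay between 6.18 and 6.80. All 38 members were above it on both arrays of unstimulated nascent RNA and at 270 min in both fractions, 36 were at 45 min in nascent RNA (Mx1 and Nmi were not), and 37 were in total RNA at 0 and 45 min (Mx1 was not). Over all genes 44.5% to 55.5% were above it. Under the stricter 99th percentile the counts were 32, 27 and 38 in nascent and 35, 36 and 38 in total RNA at 0, 45 and 270 min. The labelled cell type was borne out by its markers, with 9 of 9 macrophage markers, such as Cd68, Csf1r and Lyz2, above background in all 6 groups. Neutrophil (7 genes) and B cell (4 genes) markers were above it in no group. Of 5 markers of plasmacytoid dendritic cells, known as strong interferon producers, Siglech was above it in unstimulated total RNA and Ly6d at 270 min in both fractions. T cell markers above it were Cd3e in all groups, Lat in 5 of the 6 and Cd8a in total RNA at 45 min, and of 5 natural killer cell markers only Klrk1 at 270 min. The mast cell and basophil markers Kit and Gata2 were above it in all groups and Cpa3 and Mcpt8 in total RNA.

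**Figure D1:**
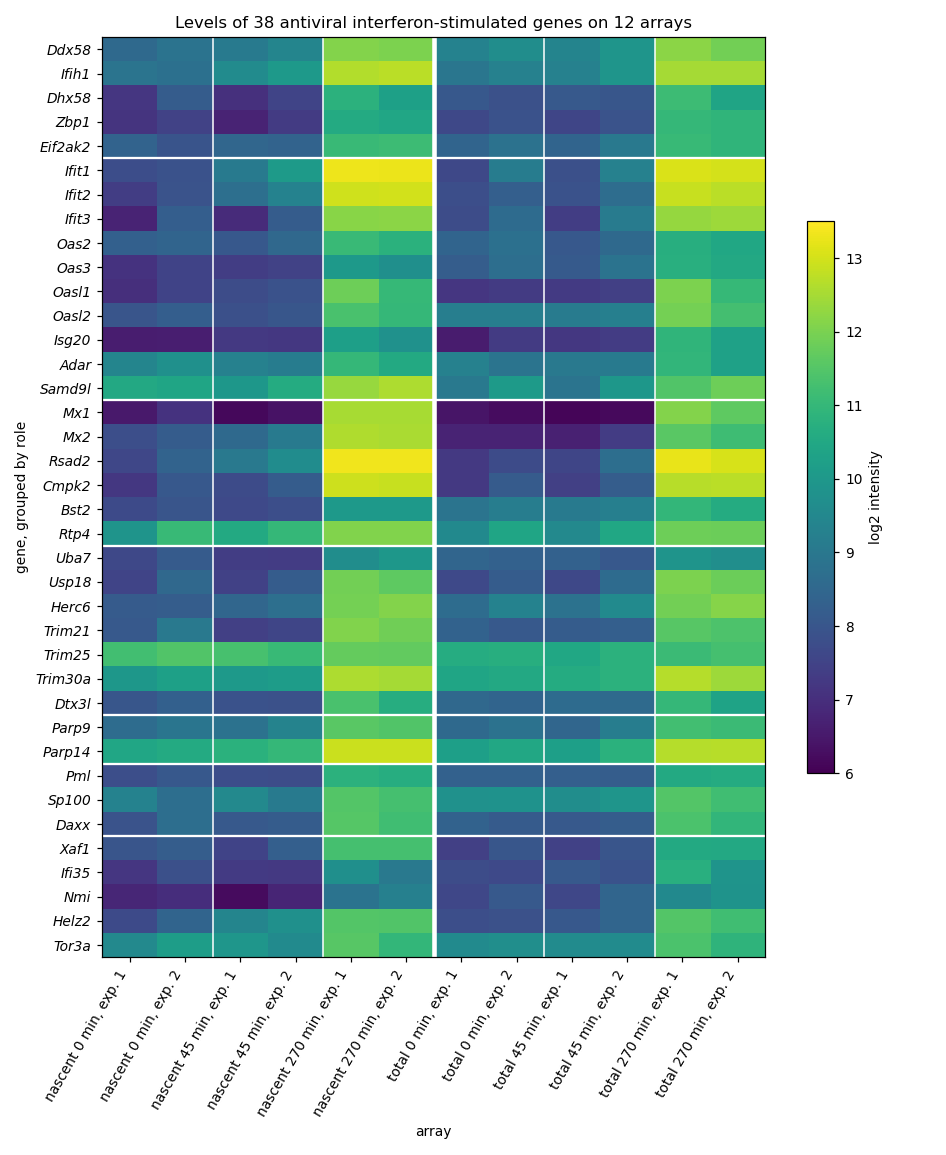
Log2 intensity (colour) of the 38 genes (rows, grouped by role) on the 12 arrays (columns: nascent RNA left, total RNA right, by time of LPS and experiment). The columns at 270 min are brighter than those at 0 and 45 min for every gene, least so for Trim25. In nascent RNA at 45 min Ifit1, Ifit2, Rsad2 and Helz2 are among the rows brighter than at 0 min.

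After 45 min of LPS, newly made RNA of 5 members was higher than in unstimulated cells: Ifit1 and Ifit2, which bind foreign RNA and hold back its translation, Rsad2 (viperin), which makes a nucleotide that stops viral polymerases, Ifih1 (MDA5), a sensor of long double-stranded RNA, and the helicase Helz2. They rose 2.03- to 3.39-fold. At a Benjamini-Hochberg adjusted p below 0.05 in limma, 3.05% of all genes were higher in this comparison and 5.88% lower; 1 member, Trim21, was lower, a smaller share than that of all genes. The other 32 members were not called, and the median difference of the 38 was -0.04 against 0.11 for all genes. In bulk RNA of this kind, fewer cells making a transcript and less of it per cell cannot be told apart.

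Nascent Ifit1 stood at 7.78 and 7.88 in the 2 unstimulated arrays and at 9.10 and 10.09 after 45 min, a difference of 1.76 ± 0.48 (SE; 3.39-fold, adjusted p = 0.036). Both stimulated arrays lay above both unstimulated ones, with the array of experiment 2 the higher. Ifit2 went from 7.36 and 7.91 to 8.75 and 9.34 (1.40 ± 0.29, 2.64-fold, adjusted p = 0.00883), and the differences within the experiments were close, 1.38 and 1.42. Its neighbour on chromosome 19, Ifit3, whose protein partners those of Ifit1 and Ifit2, had 6.73 and 8.23 before and 6.92 and 8.19 after (0.07 ± 0.57, adjusted p = 0.949). For Ifit3 the experiments lay further apart than the times did, and whether it differs from Ifit2 was not tested. Members of the Ifit family are similar in sequence and may share signal between probe sets.

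Nascent Rsad2 was 7.58 and 8.39 at 0 min and 9.05 and 9.64 at 45 min (1.35 ± 0.36, 2.56-fold, adjusted p = 0.0312). Cmpk2, the neighbour of Rsad2 on chromosome 12 and the kinase that supplies it with nucleotides, was 7.23 and 8.06 and then 7.72 and 8.17 (0.30 ± 0.35, adjusted p = 0.623). The arrays of Rsad2 separated by time, and those of Cmpk2 overlapped. Helz2 went from 7.67 and 8.40 to 9.41 and 9.77 (1.55 ± 0.26, 2.93-fold, adjusted p = 0.00203), the smallest adjusted p of the set at this time. Ifih1 was 8.89 and 8.76 and then 9.63 and 10.07 (1.02 ± 0.24, 2.03-fold, adjusted p = 0.0154), again with no overlap. Trim21, a cytosolic antibody receptor and ubiquitin ligase, was lower at 45 min, with 7.41 and 7.57 against 8.09 and 9.03 (-1.07 ± 0.27, 2.1-fold lower, adjusted p = 0.0227). Its 2 unstimulated arrays differed by more than its 2 stimulated ones, and with arrays scaled to one distribution within each fraction it was not called (-0.86, adjusted p = 0.0568). Nor was it without the unstimulated nascent array of experiment 2 (-0.60, adjusted p = 0.246) or either 45 min nascent array (adjusted p = 0.117 and 0.103).

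These early calls rested on few arrays. Without the 45 min nascent array of experiment 2 the count of members higher was 1, Helz2, the one early member whose call was kept under each alternative run. Ifih1 lost its call when the experiment 2 array of unstimulated nascent RNA was left out (0.96, adjusted p = 0.119), Ifit2 without that of experiment 1 (1.13, adjusted p = 0.058) and Rsad2 without that of experiment 1 (0.95, adjusted p = 0.175) or the 45 min array of experiment 1 (1.65, adjusted p = 0.0575). Ifit1 was not called without any one of the nascent arrays other than the 45 min array of experiment 1 (adjusted p = 0.0527 to 0.347). Mx2, a cytoplasmic antiviral GTPase, stood just outside the threshold, at 8.55 and 9.10 against 7.81 and 8.18 (0.83 ± 0.26, adjusted p = 0.0704). It was called in the blocked fit, in which each experiment has its own baseline (adjusted p = 0.0269). Mx2 was also called with arrays scaled to one distribution within each fraction (1.054, adjusted p = 0.0223) or over all arrays (1.035, adjusted p = 0.0196).

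**Figure D2:**
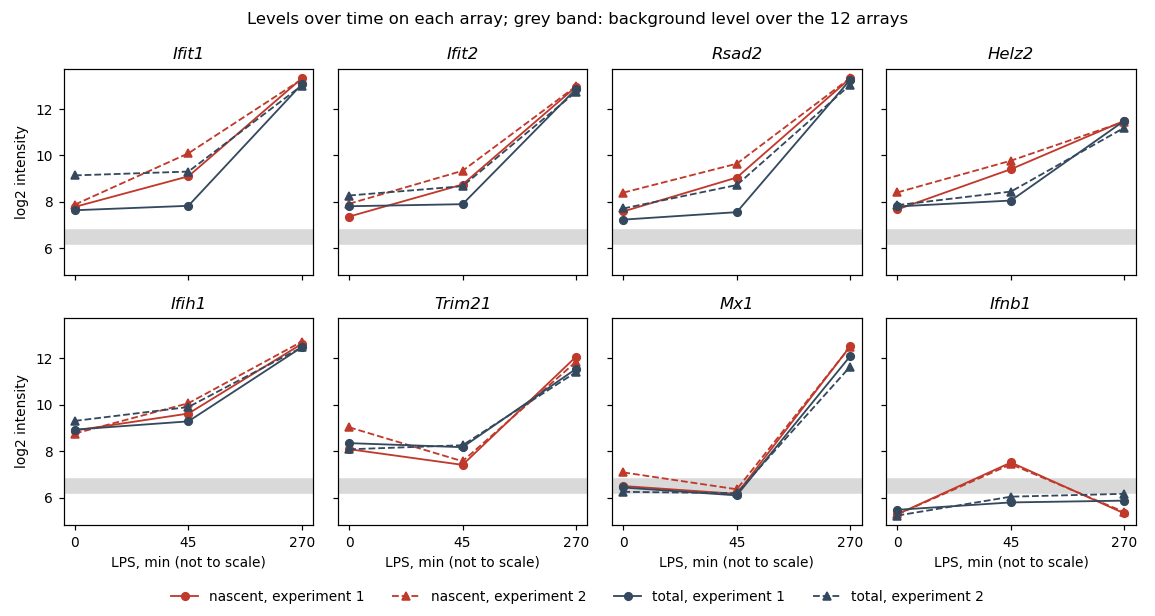
Log2 intensity at 0, 45 and 270 min of LPS (x axis, not to scale) of the 5 members higher in nascent RNA at 45 min, of Trim21, of Mx1 and of the interferon gene Ifnb1, with 1 line per fraction and experiment. Nascent RNA (red) of Ifit1, Ifit2, Rsad2, Helz2 and Ifih1 climbs from 0 to 45 min and again to 270 min, while Ifnb1 peaks at 45 min in nascent RNA (7.52 and 7.44) and Mx1 is far above the background band (6.18 to 6.80) only at 270 min.

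In total RNA at 45 min limma called 0 members higher and 0 lower, and at an unadjusted p under 0.05 the count was 0 as well. Of all genes 0.662% were called higher here. The 38 differences ran from -0.26 (Oas2) to 0.67 (Rsad2), with a median of 0.10 against -0.01 for all genes. Total Rsad2 was 7.23 and 7.71 and then 7.55 and 8.72 (0.67 ± 0.36), and total Ifit1 7.64 and 9.14 and then 7.83 and 9.30 (0.18 ± 0.48). The groups overlapped for both genes, and within each experiment the total RNA of Ifit1 hardly moved (0.19 and 0.16). Helz2 (0.42 ± 0.26) and Ifih1 (0.48 ± 0.24) were above 0 in both experiments without passing the test.

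Whether the nascent response exceeded the total one was tested on the difference between the fractions within each culture. At 45 min this response difference was higher for 2 members, against 0.476% of all genes. For Ifit1 it was 1.59 ± 0.35 (adjusted p = 0.0353; 1.13 and 2.04 in the experiments) and for Ifit2 1.16 ± 0.27 (adjusted p = 0.0449; 1.29 and 1.02). Both nascent responses were thus above the total ones in each experiment. When the fractions were not paired by culture the count was 0 (adjusted p = 0.493 for Ifit1 and 0.387 for Ifit2), and with either quantile scaling it was 1, since Ifit1 was not called (1.80 and 1.77, adjusted p = 0.17 and 0.162). Without either array of a 45 min culture neither gene was called (adjusted p = 0.302 to 0.514). Ifit1 also lost its call without either unstimulated array of experiment 2 (0.88, adjusted p = 0.0773 and 0.0845), and Ifit2 without any one of the 270 min arrays (adjusted p = 0.065 to 0.0662). Helz2 had 1.13 ± 0.30 (adjusted p = 0.0744), Rsad2 0.69 ± 0.29 and Trim21 -1.07 ± 0.34, none of which passed. Both Trim21 and Helz2 moved further from 0 in fits that left 1 unstimulated culture. Without either unstimulated array of experiment 1 the response difference of Trim21 was -1.68, and without either of experiment 2 that of Helz2 was 1.47.

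By 270 min nearly the whole set had risen. In nascent RNA 37 of the 38 members were higher than in unstimulated cells and 0 lower, against 8.87% of all genes higher, and in total RNA 37 were higher and 0 lower, against 7.02%. The median difference was 3.00 in nascent RNA (0.12 for all genes) and 2.58 in total RNA (0.07 for all genes). In both fractions the member not called was Trim25, the ubiquitin ligase that helps activate RIG-I. Both times were compared with the same unstimulated arrays.

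Among the blocks of virus entry, replication and release, Mx1 rose furthest in nascent RNA. It went from 6.50 and 7.09 to 12.53 and 12.51 (5.72 ± 0.23, 52.8-fold, adjusted p = 1.77e-09 in limma). The intact Mx1 protein is a nuclear GTPase that stops influenza virus, and whether these cells make it was not measured. The unstimulated nascent arrays of Mx1 lay above the background level. In total RNA it went from 6.44 and 6.25, around the background level, to 12.10 and 11.65 (5.53 ± 0.23). Rsad2 rose from 7.58 and 8.39 to 13.32 and 13.34 in nascent RNA (5.34 ± 0.36, 40.5-fold) and from 7.23 and 7.71 to 13.26 and 13.05 in total RNA (5.68 ± 0.36, 51.4-fold, adjusted p = 1.39e-07). The arrays of either experiment were far apart from the unstimulated ones and close to each other at 270 min. Cmpk2, not called at 45 min, reached 12.94 and 12.88 in nascent RNA (5.26 ± 0.35) and 12.68 and 12.71 in total RNA (5.01 ± 0.35). Mx2 rose by 4.59 ± 0.26 and 4.62 ± 0.26 in nascent and total RNA. Smaller rises were those of Bst2 (tetherin), which holds budding virions at the cell surface (2.20 ± 0.21 and 1.75 ± 0.21), and Rtp4, an inhibitor of flavivirus replication (1.60 ± 0.38 and 1.87 ± 0.38). Nascent Rtp4 was 9.88 and 11.06 at 0 min, so that 1 unstimulated array stood near the stimulated ones at 12.07 and 12.07, and without the unstimulated array of experiment 1 it was not called (1.01, adjusted p = 0.0816).

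All 10 members that bind, cut or edit RNA rose in both fractions. The Ifit genes led them in nascent RNA: nascent Ifit1 reached 13.32 and 13.28 (5.47 ± 0.48, 44.3-fold, adjusted p = 1.81e-06), Ifit2 12.96 and 12.98 (5.33 ± 0.29, 40.3-fold) and Ifit3 12.18 and 12.19 (4.70 ± 0.57, 26-fold). For Ifit3, which was not called at 45 min, both 270 min arrays lay above both unstimulated ones. In total RNA their differences were 4.65 ± 0.48, 4.76 ± 0.29 and 4.16 ± 0.57. The oligoadenylate synthetases Oas2 and Oas3, whose products switch on RNase L, rose by 2.58 ± 0.24 and 2.61 ± 0.27 in nascent and by 2.02 ± 0.24 and 2.17 ± 0.27 in total RNA. Of their relatives on the same chromosome 5, Oasl1, which in the mouse restrains translation of Irf7, rose by 4.18 ± 0.32 and 4.28 ± 0.32, and Oasl2 by 3.06 ± 0.24 and 2.40 ± 0.24. The exonuclease Isg20 rose by 3.41 ± 0.27 and 3.67 ± 0.27. Samd9l, a restriction factor for poxviruses, rose by 1.99 ± 0.37 and 2.10 ± 0.37, and Adar, which edits adenosines in double-stranded RNA, by 1.18 ± 0.25 and 1.52 ± 0.25. Nascent Adar had 9.41 and 9.76 at 0 min and 10.98 and 10.56 at 270 min, and without the 270 min array of experiment 1 it missed the threshold (0.97, adjusted p = 0.0531).

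The 5 sensors of foreign nucleic acid rose in both fractions. Ifih1 rose furthest of them, from 8.89 and 8.76 to 12.63 and 12.73 in nascent RNA (3.85 ± 0.24, 14.4-fold, adjusted p = 6.59e-08) and from 8.93 and 9.31 to 12.49 and 12.48 in total RNA (3.36 ± 0.24). Ddx58 (RIG-I), the sensor of uncapped viral RNA ends, went from 8.56 and 8.87 to 12.12 and 12.02 (3.36 ± 0.23) and by 2.55 ± 0.23 in total RNA. Zbp1, which detects left-handed nucleic acid and can trigger cell death, rose by 3.21 ± 0.23 and 3.20 ± 0.23, with nearly the same size in either fraction. Dhx58 (LGP2), the regulator of the other RIG-I-like receptors, rose by 2.87 ± 0.33 and 2.81 ± 0.33. Eif2ak2 (PKR), the kinase that halts translation when it meets double-stranded RNA, rose by 2.95 ± 0.25 and 2.35 ± 0.25.

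In the ISG15 system and among the ubiquitin ligases, 6 of 7 members rose in each fraction. Usp18, which removes the ubiquitin-like protein ISG15 and damps the interferon receptor, rose from 7.54 and 8.53 to 11.89 and 11.65 in nascent RNA (3.73 ± 0.37) and by 4.00 ± 0.37 in total RNA. Herc6, the mouse ligase for ISG15, rose by 3.84 ± 0.28 and 3.03 ± 0.28, and Uba7, the enzyme that activates ISG15, by 1.94 ± 0.22 and 1.40 ± 0.22. Trim21, lower at 45 min, stood at 12.08 and 11.86 in nascent RNA at 270 min (3.41 ± 0.27 above the unstimulated arrays and 4.48 ± 0.27 above those at 45 min). Trim30a, a feedback inhibitor of Toll-like receptor signalling whose family has close copies that may share signal, rose by 2.41 ± 0.18 and 2.07 ± 0.18. Dtx3l, a ligase that works with Parp9, rose by 2.85 ± 0.26 and 2.20 ± 0.26. Trim25 was 11.23 and 11.48 at 0 min and 11.73 and 11.70 at 270 min in nascent RNA (0.36 ± 0.19, adjusted p = 0.176), and 10.64 and 10.70 and then 11.13 and 11.29 in total RNA (0.54 ± 0.19, adjusted p = 0.0588). Its arrays did not overlap between the times in either fraction, and the blocked fit called the total RNA difference (adjusted p = 0.0231).

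Dtx3l lies on chromosome 16 between Parp9 and Parp14, 2 members of the ADP-ribosyltransferase family. Parp9 rose by 2.73 ± 0.26 and 2.48 ± 0.26, and Parp14 by 2.40 ± 0.20 and 2.31 ± 0.20, so that the 3 neighbours rose by 2.40 to 2.85 in nascent RNA. The 3 genes of the PML nuclear body, a site where incoming viral genomes are silenced, rose as well. Pml, its scaffold, rose by 2.82 ± 0.19 and 2.26 ± 0.19, Daxx, a histone chaperone, by 3.05 ± 0.26 and 2.91 ± 0.26, and Sp100 by 2.38 ± 0.24 and 1.52 ± 0.24. Of the remaining members, Helz2 rose from 7.67 and 8.40 to 11.50 and 11.46 (3.44 ± 0.26) and by 3.52 ± 0.26 in total RNA. Xaf1, a promoter of cell death, rose by 3.19 ± 0.28 and 2.83 ± 0.28. The partner proteins Nmi and Ifi35 rose by 2.15 ± 0.29 and 1.88 ± 0.30 in nascent RNA and by 1.87 ± 0.29 and 2.61 ± 0.30 in total RNA. Tor3a, of the torsin family of ATPases, rose by 1.41 ± 0.27 and 1.47 ± 0.27.

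**Figure D3:**
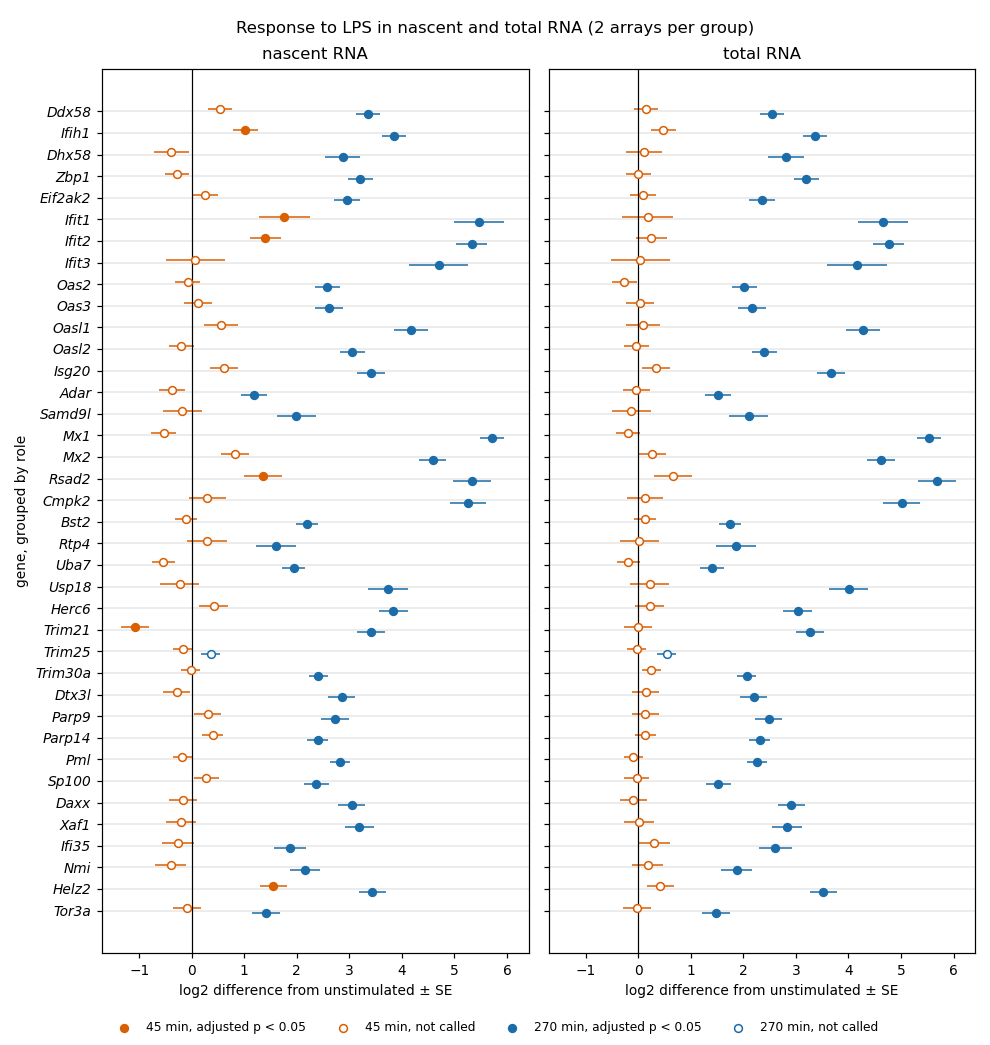
Log2 difference from unstimulated cells, with limma's SE, of the 38 genes (rows) at 45 min (orange) and 270 min (blue) in nascent (left) and total RNA (right), with filled points for adjusted p below 0.05. At 270 min every point but that of Trim25 is filled and lies between 1.18 and 5.72 in nascent RNA, while at 45 min 6 nascent points and no total RNA point are filled.

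From 45 to 270 min, 37 members rose in nascent RNA, against 6.74% of all genes, and 38 in total RNA, against 6.64%. The largest of these differences was again that of Mx1. At 45 min both of its nascent arrays (6.16 and 6.36) were under the background level, so its rise to 12.53 and 12.51 is a bound of at least 59.6-fold (measured difference 6.26 ± 0.23, adjusted p = 3.42e-09). The members that had already risen by 45 min kept rising: Ifit1 by 3.71 ± 0.48, Ifit2 by 3.93 ± 0.29, Rsad2 by 3.99 ± 0.36, Ifih1 by 2.83 ± 0.24 and Helz2 by 1.89 ± 0.26 in nascent RNA. Helz2 covered a smaller part of its rise after 45 min than the other 4 did, a contrast that was not tested. Nascent Trim25 was not called (0.53 ± 0.19, adjusted p = 0.0696), and was in the blocked fit (adjusted p = 0.027). Its call in total RNA (0.57 ± 0.19, adjusted p = 0.0484) was lost under both quantile scalings (0.45, adjusted p = 0.0971 and 0.0976) and in most fits with 1 array left out (adjusted p up to 0.259). Nascent Rtp4 (1.30 ± 0.38, adjusted p = 0.0288) was lost when any 1 of the 4 arrays compared was left out (adjusted p = 0.0588 to 0.224).

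At 270 min no member's nascent response could be told from its total RNA response. Limma called 0 members with a different response in the 2 fractions, against 0.12% of genes with a higher nascent response. The median response difference of the members was 0.25, against 0.03 for all genes. Of the 38, 26 were above 0, a count with no share of all genes set beside it. The values farthest from 0 were those of Sp100 (0.85 ± 0.30, adjusted p = 0.385), Ifit1 (0.81 ± 0.35), Ddx58 (0.81 ± 0.26), Herc6 (0.81 ± 0.30) and, on the other side, Ifi35 (-0.73 ± 0.31, adjusted p = 0.602). Within the experiments Ifit1 had 0.10 and 1.52, so that its difference lay in experiment 2, where unstimulated total Ifit1 was higher. Without the unstimulated nascent array of experiment 1, 4 members were called higher, Ifit1 (1.52), Sp100 (1.18), Herc6 (1.13) and Eif2ak2 (1.03), and Ifi35 was called lower (-1.10). A test that was not passed does not show that the responses were equal.

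**Figure D4:**
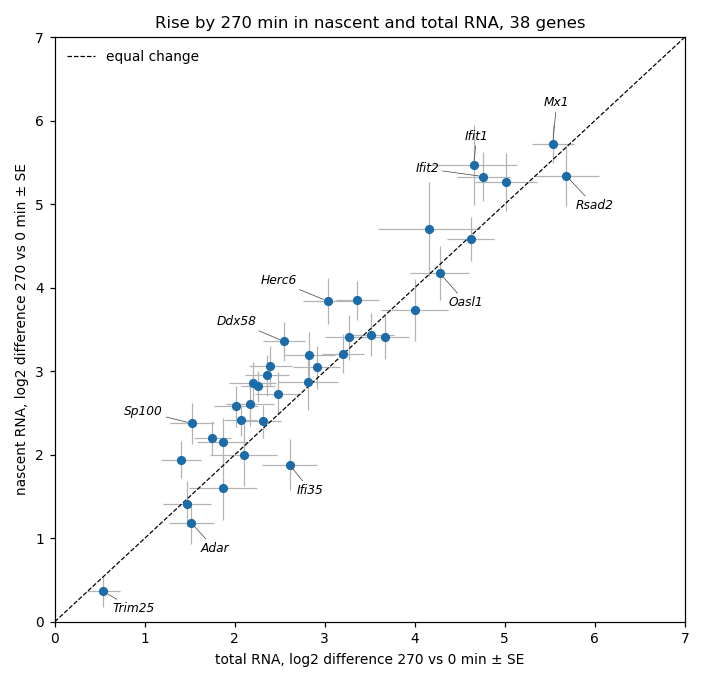
Log2 difference between 270 and 0 min in nascent RNA (y axis) against total RNA (x axis), with limma's SE on each, for the 38 genes. The points follow the dashed line of equal change from Trim25 (0.36 and 0.54) to Mx1 (5.72 and 5.53), with 26 of 38 above the line.

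Before stimulation most members did not differ between the fractions by the test. Relative to the other genes of each array, 3 members were higher in nascent than in total RNA of unstimulated cells, a share near the 7.58% of all genes, and 8 were lower, against 8.42%. The 3 were Mx2 (1.24 ± 0.21, adjusted p = 0.000248), Samd9l (0.91 ± 0.22) and Trim25 (0.68 ± 0.18). Unstimulated Mx2 was 7.81 and 8.18 in nascent and 6.75 and 6.76 in total RNA, without overlap. The 8 were Bst2 (-1.19 ± 0.20, adjusted p = 0.000294), Oas3 (-1.17 ± 0.22), Oasl2 (-1.09 ± 0.20), Nmi (-0.95 ± 0.21), Herc6 (-0.81 ± 0.21), Sp100 (-0.80 ± 0.21), Ddx58 (-0.78 ± 0.19) and Ifit3 (-0.71 ± 0.22). For Bst2 the arrays were 7.69 and 7.98 in nascent and 8.90 and 9.16 in total RNA, more than 1 unit apart in both experiments. The fractions went through different handling and RNA input, and how far that enters such a difference cannot be told apart from the fraction itself. Samd9l was not called without the arrays of experiment 1 (0.33, adjusted p = 0.448 without the nascent and 0.429 without the total array), and Sp100 and Herc6 were not without those of experiment 2 (-0.48 for both, adjusted p = 0.178 to 0.208). Ifit3 was no longer called without either unstimulated array of experiment 1 (-0.40). When the fractions were not paired by culture 5 members were lower, with Ifit3, Herc6 and Nmi no longer called, and of the higher ones Samd9l was not called (adjusted p = 0.149).

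The genes that make and relay interferon were measured on the same arrays, and their timing was not tested against that of the members. Of 12 measured genes of the interferon-inducing pathway 2 rose and 2 fell in nascent RNA at 45 min, against 3.05% and 5.88% of all genes. Ifnb1, the interferon gene itself, went from 5.29 and 5.28, under the background level, to 7.52 and 7.44 at 45 min, at least 2.26-fold (measured difference 2.20 ± 0.16, adjusted p = 1.71e-06). By 270 min nascent Ifnb1 was back under the background level (5.32 and 5.38; -2.13 ± 0.16 from 45 min), when the members described above were at their highest. In total RNA all 6 arrays of Ifnb1 were under that level (5.23 to 6.17). The other genes called at 45 min were Irf1, a transcription factor of the interferon system (2.38 ± 0.31), Irf8, which guides macrophage identity (-1.07 ± 0.29), and Mavs, the mitochondrial adaptor of RIG-I and MDA5 (-0.89 ± 0.23). Irf8 was not called in 5 of the fits with 1 array left out, its smallest value being -0.51 (adjusted p = 0.371) without the unstimulated nascent array of experiment 2. Mavs was not called under either quantile scaling (-0.63 and -0.64, adjusted p = 0.124 and 0.111), nor without that same array (-0.69, adjusted p = 0.26) or either 45 min nascent array (adjusted p = 0.0936 and 0.192). Irf1 was the single gene of this list called in total RNA at 45 min (3.02 ± 0.31).

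At 270 min 5 of these 12 genes rose in nascent RNA, against 8.87% of all genes, and 7 were called higher in total RNA, against 7.02%. The 7 include Ifnb1, whose total RNA arrays were all under the background level and which is therefore given no direction. Falls in this list are not counted here, as no share of all genes lower is set beside them. Irf7, itself an interferon-stimulated amplifier of interferon genes, went from 7.20 and 8.69 to 11.46 and 11.20 in nascent RNA (3.39 ± 0.40) and rose by 2.95 ± 0.40 in total RNA. The DNA sensor Cgas rose by 2.29 ± 0.21 and 1.96 ± 0.21, Irf1 by 1.79 ± 0.31 and 2.58 ± 0.31, and the kinase Ikbke by 1.43 ± 0.23 in nascent RNA. Sting1, the adaptor that answers Cgas, fell in both (-1.26 ± 0.29 and -1.09 ± 0.29). Its nascent value was -0.80 (adjusted p = 0.083) without the unstimulated array of experiment 2 and was not called either without the 270 min array of that experiment (adjusted p = 0.0544). In total RNA its call ended when the 0 min array of experiment 1 (adjusted p = 0.109) or the 270 min array of experiment 2 (adjusted p = 0.136) was left out. Of 9 measured genes of the receptor and its signalling, 2 rose in nascent RNA at 45 min, against 3.05% of all genes. They were Socs3, a feedback inhibitor of cytokine receptors (4.04 ± 0.28), and the receptor chain Ifnar1 (0.83 ± 0.19). The Ifnar1 call was lost when any 1 of the 4 arrays compared was left out (adjusted p = 0.0552 to 0.109). Socs3 was also the one called in total RNA at that time (3.44 ± 0.28). At 270 min 5 of the 9 rose in each fraction, against 8.87% of all genes in nascent and 7.02% in total RNA, and 0 fell. Stat2 rose by 2.49 ± 0.24 in nascent and 2.48 ± 0.24 in total RNA, Socs3 by 3.58 ± 0.28 and 3.57 ± 0.28, and Socs1, the inhibitor of Jak kinases, by 2.21 ± 0.36 and 1.68 ± 0.36. The phosphatase Ptpn6 rose in nascent RNA (1.10 ± 0.26), and Irf9 rose in total RNA (0.82 ± 0.27, adjusted p = 0.0488). Leaving out the 0 min nascent array of experiment 1 ended the call of Ptpn6 (0.67, adjusted p = 0.0593), and Irf9 was not called in 9 of the fits with 1 array left out (0.56 to 0.96, adjusted p up to 0.235). The total RNA call of Socs1 ended when the 0 min array of experiment 2 was left out (1.28, adjusted p = 0.0552).

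The 2 experiments started from different levels of these genes. In unstimulated nascent RNA 34 of the 38 members were higher in experiment 2, with a median gap of 0.32, while 43.5% of all genes were higher in it. In unstimulated total RNA 29 were (median 0.26, all genes 49.6%), and at 45 min 28 in nascent and 32 in total RNA (median 0.24 and 0.44, all genes 60.2% and 44.1%). At 270 min the gap had turned, with 10 and 8 members higher in experiment 2 (median -0.08 and -0.20, all genes 50.3% and 53.8%). The widest gaps before 270 min were those of Ifit1 and Ifit3: total Ifit1 was 7.64 in experiment 1 and 9.14 in experiment 2 before stimulation, and total Ifit3 7.35 and 9.12 at 45 min. Oasl1 had the widest at 270 min, with 12.02 and 11.02 in total RNA.

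By 270 min the rise of most members was smaller in experiment 2. There 32 members had the larger nascent difference in experiment 1, against 45.1% of all genes (median of experiment 1 minus experiment 2 0.48, all genes -0.05). In total RNA 35 did, against 51.3% (0.56, all genes 0.01). These values are built from the gaps at 0 and 270 min given above and are not a separate result. All 38 differences were above 0 in both experiments in either fraction. At 45 min 23 members had the larger nascent difference in experiment 1, against 40.6% of all genes. In total RNA 10 did (median -0.17), against 50.4%, so that most members were larger in experiment 2. Total RNA of the mast cell and basophil genes also differed between the experiments before stimulation: Cpa3, a mast cell protease, was 6.48 and 8.41 and Mcpt8, a basophil protease, 6.76 and 9.24. Over the 7 markers of these cells the mean level was 6.11 and 7.44 in unstimulated total RNA, 6.35 and 7.59 at 45 min and 6.66 and 7.60 at 270 min, experiment 2 being higher each time. Their part in the gap between the experiments was not tested.

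**Figure D5:**
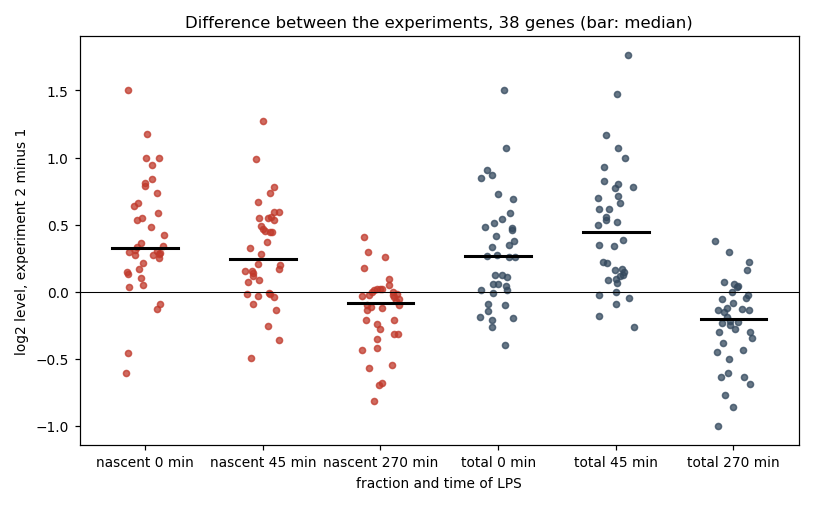
Log2 level in experiment 2 minus that in experiment 1 (y axis) of each of the 38 genes in the 6 groups (x axis), with the median as a bar. Most points lie above 0 at 0 and 45 min (medians 0.24 to 0.44) and most lie below it at 270 min (medians -0.08 and -0.20).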

How the data were processed

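The authors deposited 1 linear intensity per probe set, and the submitters' processing notes name RMA and the Affymetrix Expression Console. Their versions, and which arrays were normalised jointly, are not given in the sources consulted. RMA lessens the fold changes of dim genes. Of 35557 probe sets on the Mouse Gene ST 1.0 array, 21789 had 1 gene symbol, 1621 several and 12147 no entry in the annotation used; RefSeq gene identifiers matched for 21698. Tests covered 19938 genes with an unshared probe set; for 999 with more than 1, none a member, the brightest was used. Precision is limited by the 2 arrays per group.

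Log2 was taken in Python 3.11.15 (numpy 2.4.6, pandas 2.3.3, matplotlib 3.10.9 for figures). With limma 3.58.1 in R 4.3.3, 1 model with 6 group means was fitted over the 12 arrays, with an intensity trend. Nascent minus total comparisons were fitted to differences within each culture. The spread of each gene was drawn towards that of genes of similar intensity, with 7.38 prior and 6 residual degrees of freedom. In the fit to differences these were 16.51 and 3, so the spread there came mostly from other genes. Benjamini-Hochberg adjustment ran over all 19938 genes, with calls below 0.05. The fits were tested on simulated data. The experiment number in the labels marks arrays of one experiment. Deviations from group means of same-numbered arrays correlated at -0.295 to 0.025 in pairs of groups with unstimulated nascent RNA (-0.055 with unstimulated total RNA). Over the other pairs of groups the correlations were 0.175 to 0.645. The block was therefore run as an alternative, besides 2 quantile scalings, dim genes left out, mean of probe sets, no intensity trend and each array left out. Nascent minus total comparisons, which all use the unstimulated arrays of both fractions, were also fitted without pairing by culture. Every member with a probe set of its own is named, as are up to 4 called genes per pathway list and comparison with the largest change and markers above background. Members and lists were chosen with earlier results of these data known. Protein sequences were not used here.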

Additional observations from a re-analysis of the deposited data

Results flagged for a closer look

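Nascent and total RNA responded differently at 45 min for 2 members by the test of the difference itself. Ifit1 had a nascent response 1.59 larger than its total RNA response on the log2 scale (adjusted p = 0.0353 in limma; 1.13 and 2.04 in the experiments), and Ifit2 one 1.16 larger (adjusted p = 0.0449; 1.29 and 1.02). Nascent Ifit1 rose to 9.10 and 10.09 while total Ifit1 was 7.64 and 9.14 before and 7.83 and 9.30 after. Neither gene was called by limma when the fractions were not paired by culture (adjusted p = 0.493 for Ifit1 and 0.387 for Ifit2). Ifit1 was not called under either quantile scaling (adjusted p = 0.17 and 0.162).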

How the results depend on the processing

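Counts of members called in the 4 comparisons of 270 min with earlier times stayed within 1.5 times under all alternatives run, and no member that was called changed direction under any of them. At 45 min in nascent RNA, quantile scaling within nascent and total RNA gave 0 members lower in place of 1, and either quantile scaling added Mx2 to those higher. For the response difference at 45 min, 2 members were higher, against 0 with no replicate block (fractions not paired by culture) and 1 under each quantile scaling. In unstimulated cells, for nascent over total RNA, 8 members were lower, against 5 with no replicate block. With the experiment as a replicate block in the comparisons between times, members called at 45 min in nascent RNA gained Mx2 (0.0269), and Trim25 was gained at 270 min against 0 min in total RNA (0.0231) and against 45 min in nascent RNA (0.027); the block changed no other call of a member in these comparisons. The causes of these changes were not tested.

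The all-gene counts moved further. The replicate block gave 1838 genes lower in nascent RNA at 45 min (1172 without it) and 17 lower in total RNA (4 without it, 2 with quantile scaling over all arrays and 2 with no intensity trend). For the response difference at 45 min, 95 genes were higher and 113 lower, against 3 and 0 with no replicate block, 42 and 15 with quantile scaling within fractions and 56 and 18 with it over all arrays. At 270 min it was 24 and 144, against 2 and 47 with no replicate block, and 94 and 88 lower under the quantile scalings.

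Leaving out 1 array at a time gave these ranges, where a lone array is assumed to vary like the other groups. Members higher in nascent RNA at 45 min numbered 1 to 6 and lower 0 to 2. For the response difference they numbered 0 to 3 higher and 0 to 2 lower at 45 min, 0 to 4 higher and 0 to 1 lower at 270 min, and 3 to 7 were higher in nascent over total RNA of unstimulated cells. All genes higher ran from 343 to 647 in nascent RNA at 45 min (lower 256 to 1510), from 1074 to 2045 at 270 min (lower 1786 to 2926) and from 860 to 1415 between these times (lower 1255 to 2084). In total RNA they ran from 81 to 139 at 45 min (lower 0 to 7), 1507 to 2545 genes were lower at 270 min, and 881 to 1956 were higher between the times (lower 1400 to 2461). For the response difference the ranges were 0 to 375 higher and 0 to 1350 lower at 45 min and 5 to 282 higher and 44 to 840 lower at 270 min.

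Limits are set by 2 arrays per group, by levels near background before 270 min for Mx1 in both fractions and for Nmi in nascent RNA, and by RMA, which lessens the changes of dim genes.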
